A study of Mus musculus with 16 samples.

Results

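The genes described here are 7 inhibitors of growth factor receptor signalling, measured in cultured mouse aortic smooth muscle cells: the Sproutys Spry1, Spry2 and Spry4, the Sprouty-related Spred1 and Spred2, Errfi1 and Phlda1. They were chosen by name, as every probe set whose symbol in the platform annotation is 1 of these 7, which gave 7 of the 18194 gene symbols on the array and 23 of its 45101 probe sets. Of these, 21 passed the filter on dim signals. Spry1 and Phlda1 had 1 probe set each, Spry2 and Errfi1 had 2, Spry4 had 4 of which 3 passed, Spred1 had 8 of which 7 passed, and Spred2 had 5. Values below are those of each gene's brightest probe set unless another is named.

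The study compared wild-type cells with cells of Hey2 knockout mice; Hey2 is a transcriptional repressor of the Notch pathway. Cells came from explanted aortas whose adventitia had been removed, both genotypes had a mixed C57BL/6 and 129SvJ background, and the cultures were at passage 10 to 20. The labels say that calponin and smooth muscle alpha actin were stained to check purity. All cultures were serum starved, and the labels place each of them in a time course of human PDGF-BB at 5 ng/ml, sampled at 0, 15, 30, 60, 120, 180, 240 and 480 min. There is 1 array for each genotype and time, 8 per genotype and 16 in all. The labels do not state from how many mice or isolates each genotype came, so genotype and isolate cannot be told apart. Time was fitted as a factor, so p-values measure only how unevenly the genotypes differed from time to time, array noise included. They do not measure the spread between mice or isolates. No time course without PDGF was analysed here, so PDGF and time in fresh medium cannot be told apart either. The allele is described only as a knockout. The only Hey2 probe set read 14.0 to 113 in the wild type and 23.3 to 63.3 in the knockout, and since its position relative to the deleted part is unknown it does not check the labels.

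PDGF-BB activates a receptor tyrosine kinase, which signals through the GTPase Ras and the kinase ERK. Cells limit this signal with inhibitors that the signal itself induces. Sprouty proteins act between the receptor and the kinases downstream of Ras. Spred proteins act at the membrane on Ras, in part by bringing in the Ras inactivator neurofibromin. Errfi1, also called Mig6, binds and blocks the kinase domain of EGF receptors, and Phlda1 is a pleckstrin-homology-like protein induced by growth factors. In vascular smooth muscle this pathway is known for its part in the switch from contraction to division and migration.

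For 5 of the 7 genes RefSeq promoters of assembly GRCm38.p6 were at hand, as 6 windows of 250 bases before a transcription start. They were searched on both strands for a CRE (TGACGTCA, bound by CREB and ATF factors), an AP-1 site (TGANTCA), an ETS core (CCGGAA), an EGR site (GCGNGGGCG), an E-box (CACGTG) and a CArG box, bound by SRF. The only match was a CRE in the window before the second annotated start of Errfi1, at bases 51 to 44 before the start. That window lies at chr4:150854820-150855069 on the plus strand and is 64.8% G and C. A CRE was present in 1.55% of all 32851 windows of this length, an AP-1 site in 6.75%, an ETS core in 12%, an EGR site in 4.7%, an E-box in 6.02% and a CArG box in 1.47%. The Errfi1 window is shown because this gene rose most, with the CRE in capitals, and the Spry2 window (chr14:105896820-105897069, minus strand, 62.4% G and C) because this gene also rose and its window held no match. A match is a description of the letters and not of a bound site, and the absence of one concerns this window alone.
Errfi1, second start: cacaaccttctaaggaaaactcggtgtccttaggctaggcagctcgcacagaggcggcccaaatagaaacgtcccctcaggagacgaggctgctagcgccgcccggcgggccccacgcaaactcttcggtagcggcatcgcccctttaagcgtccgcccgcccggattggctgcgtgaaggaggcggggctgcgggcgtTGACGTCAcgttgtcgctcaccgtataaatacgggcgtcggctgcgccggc
Spry2: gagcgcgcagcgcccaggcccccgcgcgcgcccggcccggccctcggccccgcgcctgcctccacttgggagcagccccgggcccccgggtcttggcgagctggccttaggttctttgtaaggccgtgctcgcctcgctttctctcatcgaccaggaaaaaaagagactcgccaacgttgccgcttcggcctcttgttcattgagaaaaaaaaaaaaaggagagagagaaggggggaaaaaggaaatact

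At 60 and 480 min the labelled times did not match between the genotypes, and correlation alone cannot say which genotype is out of order. Over 14299 genes, the library labelled wild type 60 min correlated at 0.57 with knockout 480 min, its best match, and at -0.33 with knockout 60 min. The one labelled wild type 480 min correlated at 0.46 with knockout 60 min, its best match, and at -0.38 with knockout 480 min. At the other 6 times the genotypes correlated at 0.38 to 0.52. Among these, wild type 15 min matched knockout 0 min slightly better (0.457) than knockout 15 min (0.446). No label was changed, and for the 7 genes the main counts and calls are given with all 16 arrays and with 12, leaving out 60 and 480 min of both genotypes. Where neither a sentence nor its paragraph names the 12 arrays, values come from all 16. Before normalization the arrays differed in brightness, with 2% trimmed means of 81.0 to 342.5. The 3' over 5' ratio of the Actb control, a sign of RNA integrity, was 1.37 to 3.88 on wild-type and 1.54 to 3.71 on knockout arrays. The same ratio of the Gapdh control was highest on the knockout 15 min (5.65) and 180 min (4.64) arrays, both among the 12. The wild-type 30 min array had both the lowest trimmed mean (81.0) and the highest Actb ratio (3.88), with a Gapdh ratio of 4.49. That array is the wild-type side of the 30 min contrast below and stays among the 12 arrays. The part of these arrays in the calls made with 12 arrays was not tested. Precision is limited by how few arrays there are.

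Markers of the cells were measured beside the genes. The summed signal of 10 smooth muscle markers, headed by Acta2, Cnn1, Tagln and Myh11, had a lowest, median and highest value of 20131, 22412 and 24552 in the wild type and 13192, 14812 and 16286 in the knockout, and 7 of the 10 were called lower in the knockout. That of 11 mesothelial markers, headed by Msln, Upk3b, Upk1b and Lrrn4, was 3873, 5880 and 7446 against 22647, 25831 and 27404, and 11 of 11 were called higher. Myh11, smooth muscle myosin heavy chain, reached at most 12.6 in the knockout, under the filter signal of 16. It thus passed that filter signal only through the wild type, and a call on it is no separate support for a difference. Of 9 endothelial markers 4 were on no array above that signal, among them Pecam1 and Cdh5, and the sums were 81.9 to 153 on wild-type and 73.6 to 125 on knockout arrays. Leukocyte markers summed to 484 to 933 and 782 to 1370. Of 8, 2 were above 16 on no wild-type array and 3 on no knockout array. The largest were Cd14 (medians of 433 and 587) and Csf1r (86.7 and 177). Ptprc, Itgam, Cd52 and Cd3e had medians under 16 in both genotypes. Adventitial fibroblast markers summed to 1841 to 6807 and 2932 to 5203, with 4 of 7 tested higher and 1 lower. Thy1, Serpinf1, Dpt and the mesothelial Krt14 had wild-type medians of 13.9, 15.6, 3.09 and 5.41, and knockout medians of 170, 134, 54.0 and 213. They passed the filter mainly through the knockout, so calls on them are no separate support for a difference. The part of these differences in any result on genotype below was not tested. In bulk RNA, fewer cells of a type and less RNA per cell cannot be told apart.

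The first comparison asked how the genes responded to PDGF over both genotypes. Errfi1 rose most, to about 10.3-fold over 0 min in the mean of 120, 180 and 240 min. Phlda1 rose 3.11-fold, Spred2 1.77-fold and Spry2 1.65-fold. Spry1 and Spred1 did not pass the test with all arrays, and Spry4, which followed different courses in the genotypes, did not either.

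Errfi1 blocks EGF receptor kinases. Its normalized signal in the wild type was 588, 613, 2548, 7281, 8968, 7818, 8375 and 9041 at 0, 15, 30, 60, 120, 180, 240 and 480 min as labelled. In the knockout it was 859, 995, 3564, 9059, 7028, 5333, 7129.9 and 4649.9 at the same times. In both genotypes the 0 and 15 min arrays were low and every array from 30 min on was higher than both. The log2 change between 0 min and the mean of 120 to 240 min was 3.36 (SE 0.28, limma adjusted p = 8.24e-05 with 16 arrays; SE 0.21, adjusted p = 9.2e-07 with 12). The second probe set of Errfi1, 1419816_s_at, rose by 4.61 (SE 0.52, limma adjusted p = 0.000564), from 34.8 and 57.7 at 0 min in wild type and knockout to highest values of 2390 and 2007.

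Phlda1 had signals of 1471, 1810, 3806, 4100.0, 6502, 5798, 5231 and 7129.9 in the wild type over the same 8 times. In the knockout they were 1892, 2372, 3611, 5915, 4951, 4242, 4786 and 3189. As for Errfi1, the 0 and 15 min arrays of each genotype were its lowest. The late change was 1.64 (SE 0.26, limma adjusted p = 0.00432 with 16 arrays; SE 0.14, adjusted p = 1.07e-05 with 12). Phlda1 and Errfi1 moved closely together over the 16 arrays (r = 0.96), which share time points and genotypes.

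Spred2 acts on Ras at the membrane. Its wild-type signals were 1149, 976, 1093, 1192, 1616, 2160, 1682 and 1156, and its knockout signals 961, 804, 986, 992, 2059, 1943, 1792 and 1030. The 3 arrays of 120 to 240 min were the highest of each genotype and overlapped with none of the others, including the 480 min arrays, where the signal was back near its start. The late change was 0.82 (SE 0.14, limma adjusted p = 0.00541 with 16 arrays; SE 0.12, adjusted p = 0.000341 with 12). It was not called with the deposited scaling (0.83, SE 0.48, limma adjusted p = 0.625). Of its other 4 probe sets, 1436892_at rose as well (1.08, SE 0.25, limma adjusted p = 0.0242), and the remaining 3 were at 0.17 to 0.53 and not called.

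Spry2 had signals of 915, 1190.1, 1669, 1717, 1514, 1550.0, 1862 and 1833 in the wild type and 692, 735, 1126, 1575, 1334, 935, 940.3 and 993 in the knockout. The 0 min array was the lowest of each genotype; in the knockout the 60 min array was the highest and those from 180 min on were lower again, while the wild-type arrays from 30 min on were all above the earlier ones. The late change was 0.72 (SE 0.17, limma adjusted p = 0.0264 with 16 arrays; SE 0.13, adjusted p = 0.00164 with 12). Leaving out the 120 min arrays ended this call (0.66, adjusted p = 0.0588), as did moderation without the intensity trend (adjusted p = 0.0675) and the deposited scaling (0.70, SE 0.48, adjusted p = 0.743). The dim probe set 1421656_at of Spry2 was at 0.81 and not called (SE 0.35, limma adjusted p = 0.177).

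Spry1, the member that ran downward, had wild-type signals of 498, 454, 512, 273, 279, 406, 401 and 447 and knockout signals of 324, 278, 384, 252, 185, 240.1, 299 and 273. Its 120 min array was the lowest in the knockout and, with the array labelled 60 min, the lowest in the wild type. The late change was -0.46 (SE 0.16, limma adjusted p = 0.0997 with 16 arrays), and it was called with 12 arrays (SE 0.12, adjusted p = 0.0155) or without the 60 min arrays alone (adjusted p = 0.042).

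Spred1 is the other Sprouty-related inhibitor. Its wild-type signals had a lowest, median and highest value of 785, 1153 and 1646 and its knockout signals of 867, 1031 and 1264.5. The wild-type range contained the whole knockout range. The late change of 0.45 (SE 0.19, limma adjusted p = 0.16 with 16 arrays; SE 0.16, adjusted p = 0.0507 with 12) was not called. None of the other 6 tested probe sets of Spred1 passed with 16 arrays, at 0.09 to 0.65; with 12 arrays 1423161_s_at (0.57, limma adjusted p = 0.00775) and 1423162_s_at (0.65, adjusted p = 0.019) did.

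**Figure D1:**
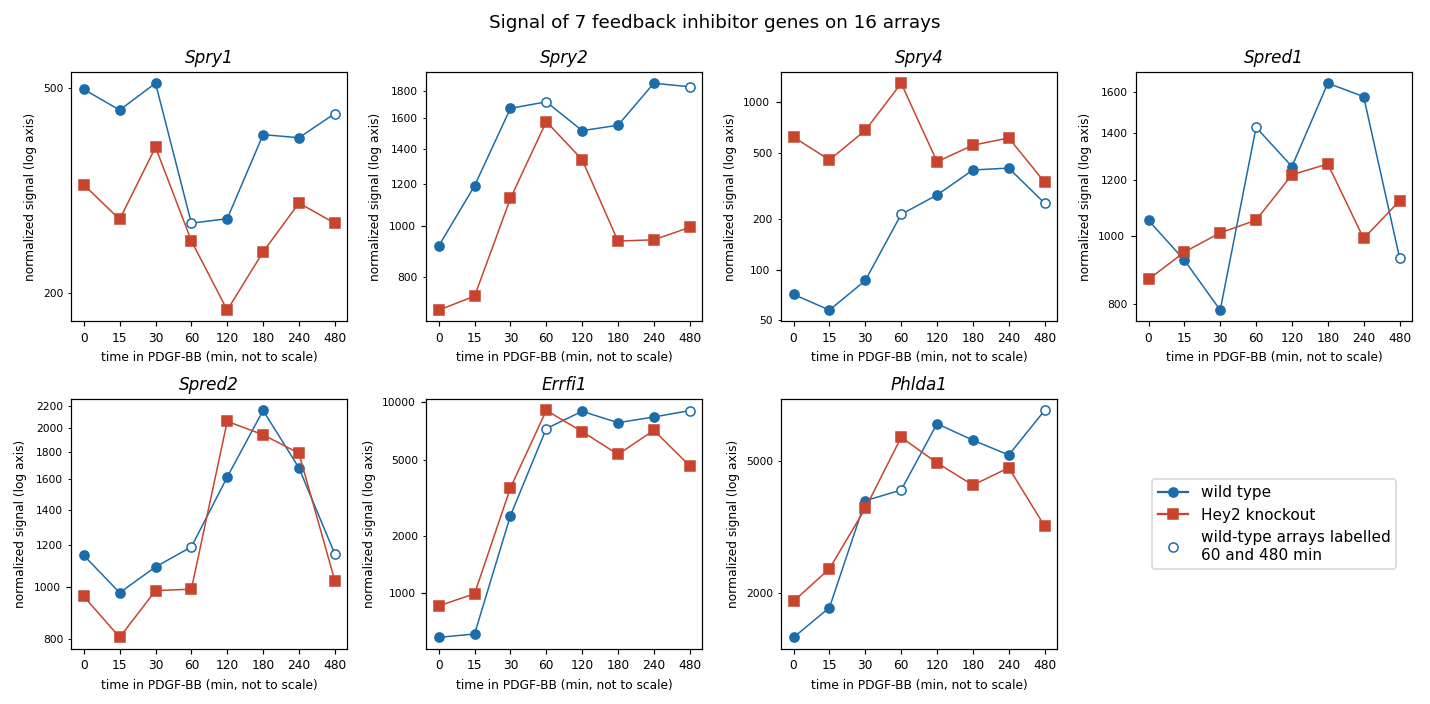
Normalized signal (log axis) of the brightest probe set of each of the 7 genes against the labelled time in PDGF-BB (min, evenly spaced, not to scale), with blue circles for wild type, red squares for knockout, and hollow circles for the wild-type arrays labelled 60 and 480 min; each point is 1 array. Errfi1 climbs from 588 and 859 at 0 min to highest values of 9041 and 9059, whereas Spry4 starts at 71.4 in the wild type and at 618 in the knockout.

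In all, 4 of the 7 genes rose and 0 fell at 120 to 240 min, where 4.65% of the 14299 genes tested rose and 4.80% fell. With 12 arrays 4 rose and 1 fell, against 13.2% and 19.0% of 13913 genes. At the earlier window, 0 members were called, either as the mean of 15, 30 and 60 min with 16 arrays or, since 60 min is left out, of 15 and 30 min with 12; 0.00699% and 0.187% of genes rose. Over the 31886 probe sets tested with limma, 2 passed in that window and 1228 had an unadjusted p under 0.05; Errfi1, Phlda1 and Spry2 were among the latter, with log2 differences of 1.90, 1.01 and 0.69. At 30 min alone, with 12 arrays, Errfi1 had risen by 2.08 (SE 0.25, limma adjusted p = 0.00184) and Phlda1 by 1.15 (SE 0.18, adjusted p = 0.0112), while 0.403% of genes rose. Spry2 stood at 0.78 and was not called there (SE 0.16, limma adjusted p = 0.0734), and the other 4 genes lay between -0.10 and 0.20. With all 16 arrays in the fit, 0 members passed at 30 min (limma adjusted p = 0.156 for Errfi1), where 0.00699% of genes rose and 1244 of 31886 probe sets had an unadjusted p under 0.05.

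At 480 min as labelled, Errfi1 alone among the 7 passed against 0 min (3.18, SE 0.34, limma adjusted p = 0.00443), as did 0.210% of genes. This value rests on arrays whose labelled time did not match between the genotypes. Tested for a change at any time, Errfi1 (limma F = 39.3, adjusted p = 0.000446), Spred2 (F = 15.3, adjusted p = 0.00865) and Phlda1 (F = 8.77, adjusted p = 0.0377) passed with 16 arrays, where 2.84% of genes did. Leaving out both arrays of any 1 of the times 15, 30, 120, 180 or 240 min ended the call of Phlda1 in this test (limma adjusted p = 0.0681 to 0.116), as did testing without the filter (adjusted p = 0.0534) or without the intensity trend (adjusted p = 0.134). That of Spred2 ended without the 180 min arrays (limma adjusted p = 0.0653), without the trend (adjusted p = 0.062) and with the deposited scaling (adjusted p = 0.276). With 12 arrays Spry1 and Spry2 passed too, 5 of 7, against 33.2% of genes.

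Other genes of the pathway moved unevenly in the late window, where 4.65% of all genes rose and 4.80% fell with 16 arrays, and 13.2% and 19.0% with 12. Of 21 measured outputs of ERK signalling 14 rose and 0 fell, with a median of 2.02 against -0.08 over all genes, and 19 rose with 12 arrays. They included Ereg, an EGF receptor ligand (4.03, SE 0.26), Dusp4, an ERK phosphatase (2.02, SE 0.14), and the transcription factors Fosl1 (5.92, SE 0.43) and Myc (2.34, SE 0.21). Of 26 relatives of the 7 genes and other receptor inhibitors, 2 rose and 0 fell, with a median of 0.36. These were Socs5 (1.04, SE 0.17) and Socs6 (0.76, SE 0.16), which belong to a family that targets receptors for degradation, and with 12 arrays 11 of 25 rose. Of 25 components of the Ras and ERK cascade 3 rose and 3 fell, with a median of -0.35, among them the Ras inactivators Rasa2 (1.16, SE 0.15) and Rasa3 (-1.08, SE 0.13), the GTPase Nras (0.63, SE 0.14) and the PI3-kinase subunit Pik3r1 (-1.10, SE 0.25). With 12 arrays 3 of them rose, near the share of all genes, and 11 fell. The Actb 3' over 5' ratio also fell over this window. On the wild-type arrays it went from 2.75 at 0 min to 1.53, 1.84 and 1.78, and on the knockout ones from 2.89 to 1.85, 2.44 and 1.54. The Gapdh ratio went from 3.73 to 2.59, 3.21 and 2.99 in the wild type. In the knockout it went from 3.51 to 2.56, 4.64 and 2.44. The part of RNA integrity in these changes was not tested.

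The second comparison asked how the genes differed between knockout and wild type. Over all 8 times Spry4 was higher in the knockout, 3.22-fold, and Spry1 and Spry2 were lower, by 1.45-fold and 1.48-fold. The Spred genes, Errfi1 and Phlda1 did not pass the test of a difference over all times. Of the 7 genes 1 was higher and 2 were lower, where 16.2% of 14299 genes were higher and 13.5% lower. With 12 arrays the counts were the same, against 20.5% and 19.8%.

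Spry4 is the Sprouty with the largest difference. In the wild type it read 71.4, 57.6, 86.4, 214, 279, 394, 404 and 249 over the 8 labelled times. The knockout signal was 618, 452, 678, 1296, 441, 553, 611 and 333 over the same times. It was higher in the knockout at 8 of 8 times, and up to 60 min the genotypes did not overlap. The log2 difference was 1.69 (SE 0.35, limma adjusted p = 0.00396 with 16 arrays), and 1.76 with 12 (SE 0.35, adjusted p = 0.00184). The other tested probe sets were higher too, 1445669_at by 1.83 (SE 0.34, limma adjusted p = 0.00211) and 1422021_at by 1.87 (SE 0.40, adjusted p = 0.00523). The latter was above 16 on 7 of 8 knockout arrays and on 1 of 8 wild-type arrays. It thus passed the filter only through the knockout and is no separate support for the difference. The size of its difference also depends on the offset added before the logarithm. The fourth probe set, 1422020_at, stayed at or under 15.2 on all arrays and was not tested.

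Spry1 was lower in the knockout at 8 of 8 times as labelled, at 0.59 to 0.92 of the wild-type signal. The array labelled wild type 60 min and its best match, knockout 480 min, both read 273. The Spry1 difference over all times was -0.53 (SE 0.10, limma adjusted p = 0.00197 with 16 arrays) and -0.58 with 12 (SE 0.09, adjusted p = 0.000265). Spry2 was lower at 8 of 8 times as well, at 0.50 to 0.92 of the wild type, with a difference of -0.57 (SE 0.10, limma adjusted p = 0.00179) and -0.59 with 12 arrays (SE 0.09, adjusted p = 0.000333). Its dim probe set differed by -1.0 (SE 0.21, limma adjusted p = 0.00491). For both genes the ranges of the genotypes over the whole course overlapped. With the deposited scaling, which moves the median difference of all probe sets from -0.03 to 0.25, Spry1 was at -0.19 and Spry2 at -0.23 and neither was called (limma adjusted p = 0.779 and 0.699), while Spry4 was.

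Spred1 (-0.14, SE 0.11), Spred2 (-0.10, SE 0.08), Errfi1 (-0.01, SE 0.17) and Phlda1 (-0.12, SE 0.16) were not called (limma adjusted p = 0.405 to 0.981). The probe sets of Spred1 and of Spred2 differed in their calls. For Spred1, 1452911_at was lower (-0.41, SE 0.11, limma adjusted p = 0.0201), with signals of 299 to 535 in the wild type and 283 to 323 in the knockout, and 1460116_s_at was lower (-0.31, SE 0.09, adjusted p = 0.0224), while the brightest probe set and 4 others were not called. With 12 arrays 1423161_s_at was lower too (-0.27, SE 0.09, limma adjusted p = 0.0424). For Spred2, 1441802_at was lower (-0.55, SE 0.17, limma adjusted p = 0.0334), a call lost with 12 arrays (adjusted p = 0.0614), where 1423001_at was called higher instead (0.87, SE 0.29, adjusted p = 0.0347). Over the 21 tested probe sets of the 7 genes 3 were higher and 6 lower, where 13.4% and 12.2% of all 31886 were.

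**Figure D2:**
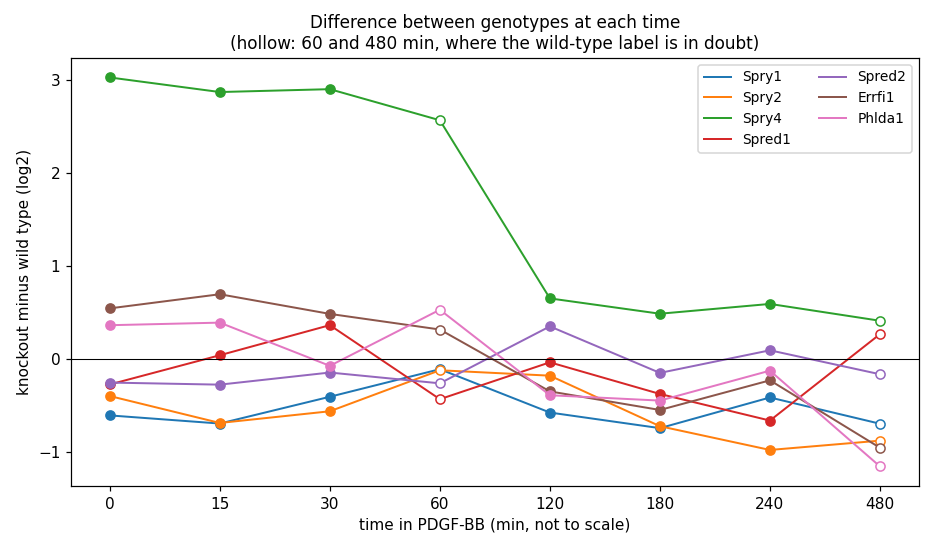
Knockout minus wild-type difference (log2) of each gene's brightest probe set against labelled time in PDGF-BB (min, evenly spaced, not to scale), 1 line per gene, with hollow points at 60 and 480 min. Spry4 lies near 3 up to 30 min and near 0.5 from 120 min on, Errfi1 lies above 0 up to 60 min and below it from 120 min on, Phlda1 does so except at 30 min (-0.076), and Spry1 and Spry2 stay below 0 throughout.

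For the genes around the 7, counts are to be read against the 16.2% of all genes called higher and 13.5% lower with 16 arrays, and the 20.5% and 19.8% with 12. Of the 26 relatives and other receptor inhibitors 2 were higher in the knockout and 5 lower. Their median was -0.19 against -0.02 over all genes, and with 12 arrays 4 of 25 were higher and 8 lower. Il17rd, a membrane inhibitor of FGF signalling, was higher (0.75), and Lrig3, a leucine-rich receptor regulator (-0.76), Cblb, a ubiquitin ligase of receptors (-0.45), and Socs4 (-0.30) were lower. Of 25 cascade components 5 were higher and 4 lower (6 and 6 with 12 arrays), near the share of all genes, and their median was -0.02. The kinases Rps6ka3 (0.69) and Map2k1 (0.67) were higher, and Pik3r1 (-0.98) and Rasa3 (-0.42) lower. Of 21 ERK outputs 0 were higher and 2 lower, Myc (-0.82) and Dusp4 (-0.48), with a median of -0.13, while with 12 arrays 2 were higher and 7 lower.

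The third comparison asked whether the difference between the genotypes changed over the time course, as the difference from 120 min on minus that before 120 min. For Spry4 it shrank: the knockout was 7.65-fold above the wild type before 120 min and 1.49-fold above it from then on, in the fit with 12 arrays (7.18-fold and 1.45-fold with 16). Errfi1 went from above the wild type to below it, and Phlda1 from no called difference to below it. Spry1 and Spry2 were lower in both periods in that fit, and with 16 arrays the call of Spry2 before 120 min was lost.

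The change in the Spry4 difference was -2.31 (SE 0.18, limma adjusted p = 0.00295 with 16 arrays). It was the only one of 31886 probe sets called in this comparison, 0.00314% of probe sets and 0.00699% of genes, while 2329 probe sets had an unadjusted p under 0.05. With 12 arrays it was -2.36 (SE 0.16, limma adjusted p = 2.7e-05), where 1.40% of genes were called in this direction. It stayed called when the arrays of any 1 time were left out (limma adjusted p = 0.000954 to 0.0411). It was not called with the deposited scaling (-2.05, SE 0.68, adjusted p = 1) or when the interaction was fitted as a smooth spline of time (-1.87, adjusted p = 0.458). The probe set 1445669_at gave -2.17 (limma adjusted p = 0.066) with 16 arrays and -2.32 (adjusted p = 7.43e-05) with 12. Its signals were 44.1, 39.3, 65.1, 186, 238, 329, 290.3 and 228 in the wild type and 435, 365, 647, 867, 488, 544, 497 and 315 in the knockout.

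By genotype and with 12 arrays, Spry4 in the wild type was 2.25 higher at the later times than before 120 min (SE 0.11, limma adjusted p = 2.05e-08). In the knockout it stood at -0.11 (SE 0.11, limma adjusted p = 0.548). With 16 arrays the values were 1.74 (adjusted p = 8.8e-05) and -0.57 (adjusted p = 0.0442). The lowest knockout value up to 30 min, 452, lay above the highest wild-type value of the whole course, 404.

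Errfi1 differed by 0.57 before 120 min (SE 0.07, limma adjusted p = 6.21e-05) and by -0.38 from 120 min on (SE 0.07, adjusted p = 0.00147) with 12 arrays. With 16 arrays these were 0.51 (limma adjusted p = 0.0113) and -0.52 (adjusted p = 0.0112). The change of -0.95 was called with 12 arrays (SE 0.10, limma adjusted p = 0.000521), and at -1.03 it was not with 16 (SE 0.16, adjusted p = 0.143). The knockout was above the wild type at 0, 15 and 30 min, by 1.40-fold to 1.62-fold, and at 0.68 to 0.85 of it at 120 to 240 min. At the doubtful labels it was 1.24-fold above at 60 min and at 0.51 of the wild type at 480 min. The second probe set of Errfi1 gave -1.63 (limma adjusted p = 0.00616) with 12 arrays and -1.87 (adjusted p = 0.21) with 16. Its signals at 120, 180 and 240 min were 2250, 1486 and 1742 in the wild type and 1037, 453 and 1122 in the knockout, which did not overlap.

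Phlda1 differed by 0.22 before 120 min, which was not called (SE 0.09, limma adjusted p = 0.0807), and by -0.32 from then on (SE 0.09, adjusted p = 0.0158) with 12 arrays. With 16 arrays these were 0.30 (limma adjusted p = 0.211) and -0.53 (adjusted p = 0.0371). Its change of -0.55 passed with 12 arrays (SE 0.12, limma adjusted p = 0.0441) and not with 16 (-0.83, SE 0.21, adjusted p = 0.412). In the wild type Phlda1 rose by 1.43 from the earlier to the later times and in the knockout by 0.88, and Errfi1 by 3.10 and 2.15.

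**Figure D3:**
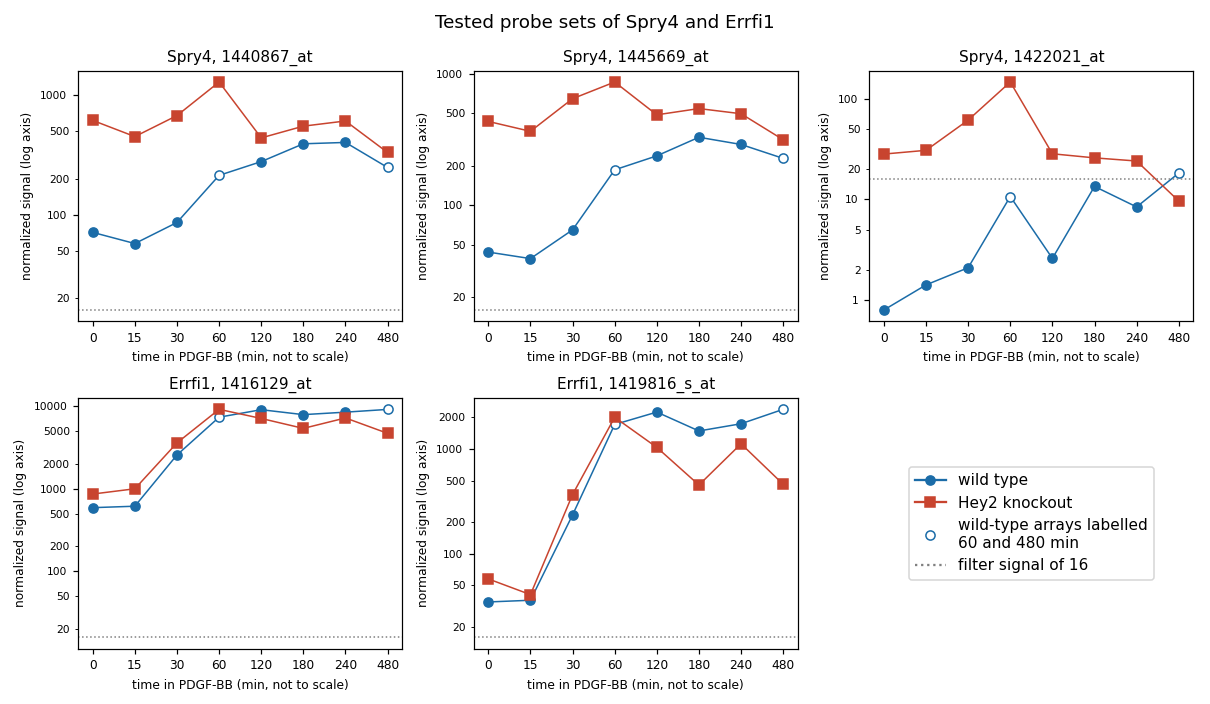
Normalized signal (log axis) of the 3 tested probe sets of Spry4 and the 2 of Errfi1 against labelled time in PDGF-BB (min, not to scale), with blue circles for wild type, red squares for knockout, hollow circles for the wild-type arrays labelled 60 and 480 min and a dotted line at the filter signal of 16; each point is 1 array. On both brighter Spry4 probe sets the genotypes are far apart up to 60 min and close from 120 min on, and on both Errfi1 probe sets the knockout lies below the wild type from 120 min on.

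Spry1 and Spry2 did not pass this test (-0.15 and -0.25 with 16 arrays, -0.01 and -0.08 with 12). With 12 arrays Spry1 was lower by -0.57 before 120 min (SE 0.12, limma adjusted p = 0.00284) and by -0.58 from then on (adjusted p = 0.00256), and with 16 by -0.46 (adjusted p = 0.0482) and -0.61 (adjusted p = 0.0152). Spry2 was lower with 12 arrays by -0.55 (SE 0.12, limma adjusted p = 0.00503) and -0.63 (adjusted p = 0.00215). With 16 it stood at -0.45 before 120 min, which was not called (limma adjusted p = 0.0586), and was lower by -0.69 from then on (adjusted p = 0.00929). Spred1 (-0.13 with 16 arrays, -0.40 with 12) and Spred2 (0.27 and 0.32) did not pass either; from 120 min on, Spred1 was at -0.36 with 12 arrays (SE 0.13, limma adjusted p = 0.0519). With 12 arrays 2 of the 7 genes were higher and 2 lower before 120 min, where 16.8% and 16.6% of genes were, and 1 was higher and 4 lower from then on, where 17.7% and 15.8% were. With 16 arrays 2 were higher and 1 lower before 120 min, where 10.5% and 8.19% of genes were, and again 1 and 4 from then on, where 9.37% and 7.49% were.

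Each genotype was also compared with itself, later times against those before 120 min, with 12 arrays. In the wild type 6 of the 7 genes rose and Spry1 fell, with 18.2% of genes rising and 26.0% falling. In the knockout Errfi1, Phlda1 and Spred2 rose and Spry1 fell, with 12.1% and 16.4%. Spred2 rose in both, by 0.75 (SE 0.09, limma adjusted p = 3.42e-05) in the wild type and 1.07 (SE 0.09, adjusted p = 4.25e-06) in the knockout. Spry1 fell by 0.44 in the wild type (limma adjusted p = 0.00937) and by 0.45 in the knockout (adjusted p = 0.0142). Spry2 (0.42, limma adjusted p = 0.0174) and Spred1 (0.69, adjusted p = 0.000818) passed in the wild type, and in the knockout they stood at 0.34 (adjusted p = 0.0671) and 0.29 (adjusted p = 0.128); as given above, the difference between the genotypes did not pass for either. With 16 arrays, 4 rose in the wild type (Errfi1, Phlda1, Spred2 and Spry4), where 3.55% of genes rose. In the knockout Errfi1 and Spred2 rose and Spry4 fell, where 2.50% of genes rose and 1.20% fell.

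**Figure D4:**
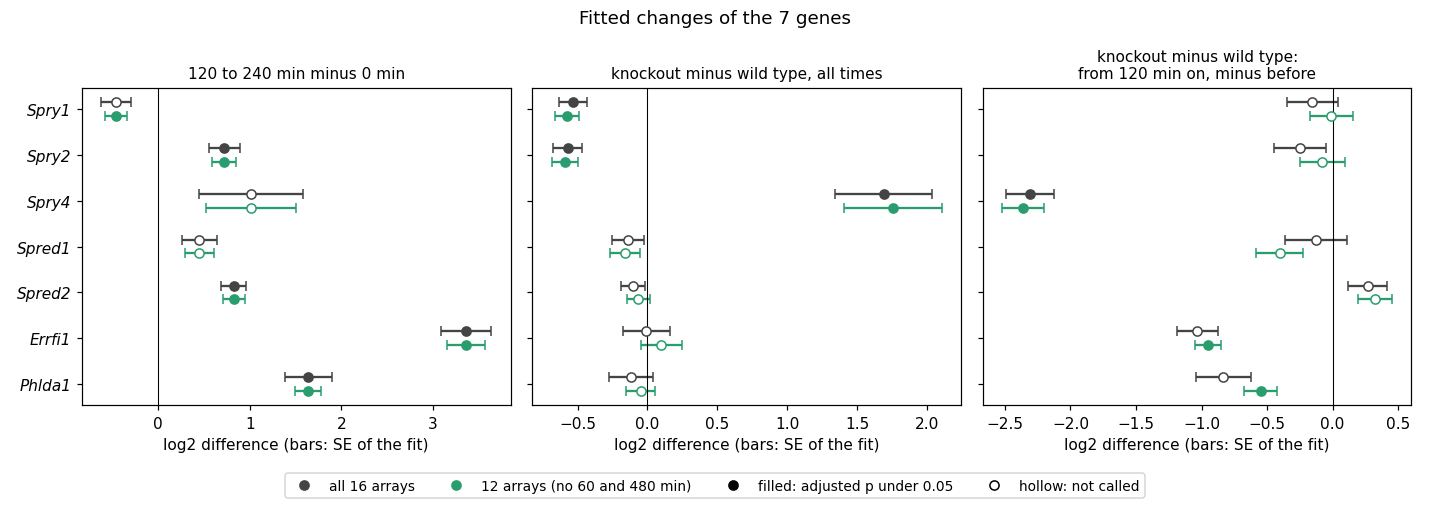
Fitted log2 differences with their standard errors for the 7 genes, in 3 panels (120 to 240 min minus 0 min; knockout minus wild type over all times; the change of that genotype difference at 120 min), with grey for 16 arrays, green for 12, and filled points where the limma adjusted p was under 0.05. Errfi1 has the largest late rise (3.36), and Spry4 the largest difference between genotypes (1.69) and the largest change of it (-2.31).

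Of the 21 ERK outputs 0 were called in the third comparison with 16 arrays, with a median of -0.88 against 0.00 over all genes. With 12 arrays 8 of 21 had a more negative difference from 120 min on and 0 a more positive one, where 1.40% and 1.32% of genes did, and the list's median was -0.44. Fosl1 (-1.69, limma adjusted p = 0.000406) and Dusp5 (-2.20, adjusted p = 0.00369) were among the 8; they are named here after their values were seen. Of the cascade components 1 was called in each direction and of the relatives 1 upward and 0 downward with 12 arrays, namely Lztr1 (1.07), Map2k1 (-0.64) and Lrig3 (0.99), also named after their values were seen.

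Over the 16 arrays, the genes outside the set whose log2 signal followed each member most closely were found among 14299 genes by Pearson correlation, given as a description since the arrays share time points and genotypes. For Errfi1 these were Epha2 (r = 0.98), an ephrin receptor, Dusp5 (r = 0.97), an ERK phosphatase, and Ankrd1 (r = 0.96). For Phlda1 they were Dusp5 (r = 0.98), Ier5 (r = 0.97) and Epha2 (r = 0.94), so that Dusp5 and Epha2 stand near both. For Spry4 they were the PI3-kinase subunit Pik3cb, Akirin1 and Stard4, each at r = 0.92. Spred2 was followed by Abtb2 and Zfp469 (r = 0.95 each) and Mef2a (r = 0.94), Spry1 by Zkscan3 (r = 0.93), Foxk1 (r = 0.92) and Fam131b (r = 0.91), Spry2 by Mzb1 (r = 0.91), Sde2 (r = 0.90) and Lats1 (r = 0.89), and Spred1 by Zfp697 (r = 0.90), Klhl23 and Pparg (r = 0.89 each). Among the members themselves, Spry2 and Phlda1 correlated at 0.70, Spred1 and Spred2 at 0.67, and Spry1 and Spry4 at -0.63.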

How the data were processed

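RNA was measured on 16 Affymetrix arrays. The authors deposited a linear signal intensity for each probe set, computed with MAS5 per the submitters' processing notes (for its version and scaling target the sources used here give nothing). The arrays were not on a common scale, so they were quantile normalized. Signals were transformed as log2(signal + 4.856), the 20th percentile of all values, which understates changes of dim probe sets. Tests covered probe sets with a signal over 16 (40th percentile) on 3 or more arrays. Symbols came from the platform annotation: 34945 probe sets had 1, 932 several and 9160 none. limma 3.58.1 in R 4.3.3 fitted time as a factor plus genotype, so that arrays of a time formed a block, with eBayes moderation along intensity and p-values adjusted by Benjamini-Hochberg over all tested probe sets, called at 0.05. Residual degrees of freedom were 7, and 6 with the interaction (5 and 4 with 12 arrays). Standard errors are those of the fit. Genes are represented by their brightest tested probe set. The fits were run on simulated data, with changes planted in independent normal noise. That checks the recovery of a planted change and not the calls made here, since label doubts and RNA quality were not simulated. Named list genes are up to 4 called genes with the smallest p. The members, lists and tests were chosen with earlier results of these data known. The 30 min contrast, the split before and from 120 min, and the steps within each genotype were added after seeing the data. Promoter windows are RefSeq's for GRCm38.p6.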

Additional observations from a re-analysis of the deposited data

Results flagged for a closer look

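Differences between knockout and wild type that changed over the time course are given here again, as the difference from 120 min on minus that before 120 min. Spry4 had -2.31 with all 16 arrays (limma adjusted p = 0.00295) and -2.36 with the 12 arrays outside 60 and 480 min (adjusted p = 2.7e-05), with the knockout higher at 8 of 8 times. Its probe set 1445669_at had -2.32 with 12 arrays (limma adjusted p = 7.43e-05). Errfi1 had -0.95 on its brightest probe set (limma adjusted p = 0.000521) and -1.63 on 1419816_s_at (adjusted p = 0.00616) with 12 arrays. Phlda1 had -0.55 with 12 arrays (limma adjusted p = 0.0441). The calls of Errfi1, Phlda1 and 1445669_at were made only without the 60 and 480 min arrays.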

How the results depend on the processing

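Of the 7 genes, 3 differed between genotypes, 1 with the deposited scaling, and 5 from 120 min on, with 16 arrays and with 12. Shares of all genes stand with the comparisons above for 16 and 12 arrays and are not given for the other settings. For a change at any time 3 passed, 1 without the intensity trend, 5 without the 60 and 480 min arrays, and 1 to 5 leaving out 1 time. In the early window 0 passed, 0 to 1 leaving out 1 time, and 2 at 30 min alone with 12 arrays. In the late window 4 passed, where 4.65% of genes rose and 4.80% fell, and 2 passed with the deposited scaling. Another contrast took the wild type alone with 12 arrays, later times against those before 120 min. There 6 rose and 1 fell, where 18.2% and 26.0% of genes did. At 480 min 1 passed, 0 without the trend. For the change of the genotype difference 1 passed, 0 with the deposited scaling, 3 with 12 arrays and 0 with the spline. The deposited scaling moved the median of all probe sets to 0.25 for genotype, -0.31 early, -0.15 late and -0.33 at 480 min, and to 0.15 for the interaction. With it, genotype differences turned to 0.20 for Spred1, 0.23 for Spred2, 0.36 for Errfi1 and 0.23 for Phlda1, the early change of Spred1 to -0.23, and those at 480 min to -0.21 for Spred1 and -0.25 for Spred2. None of these was called in either setting. The genotype difference of Errfi1, near 0, turned to 0.021 with a common trimmed mean, to 0.098 with 12 arrays, and ran from -0.11 to 0.13 leaving out 1 time, that of Phlda1 from -0.21 to 0.033. Before 120 min Errfi1 was at 0.51 (0.57 with 12 arrays), Phlda1 at 0.30 (0.22) and Spred1, with 12 arrays, at 0.041; from 120 min on Spred2 was at 0.030 (0.096). The early change turned with 12 arrays, where it is the mean of 15 and 30 min, to -0.085 for Spry4 and -0.065 for Spred1, and leaving out 1 time it ran from -0.085 to 0.74 for Spry4, -0.065 to 0.16 for Spred1 and -0.13 to 0.016 for Spred2. At 30 min alone Spry1 was at 0.14 and Spred1 at -0.10. Within the knockout, Spry4 from 120 min on minus before 120 min stood at -0.57 (-0.11 with 12 arrays), which is another contrast than the late change against 0 min. The interaction of Spred1 ran from -0.28 to 0.027 leaving out 1 time. The cause of these turns was not tested. Over all alternatives, 122 of 147 genotype values, 122 of 140 late values and 113 of 119 interaction values kept their direction and side of the threshold. The genotype and late alternatives include the splits at 120 min, which are other contrasts than the main ones. No paired analysis by replicate was possible because each genotype and time has 1 array; time served as the block.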
